A study of Mus musculus with 24 samples.

Results

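The PYHIN genes encode DNA-binding proteins of the interferon response, and 10 of them are described here in brains of mice with a mutated RNA polymerase III. The members are Aim2, Ifi203, Ifi204, Ifi206, Ifi207, Ifi208, Ifi209, Ifi211, Ifi213 and Mndal, taken by gene name from the deposited count tables, where they make up 10 of 54532 genes. A PYHIN protein typically joins a pyrin domain, which binds other pyrin domains, to a HIN domain, which binds double-stranded DNA. AIM2 uses its HIN domain to detect DNA in the cytosol and its pyrin domain to recruit the adaptor ASC, which activates caspase-1 in a complex called an inflammasome. Several Ifi200 genes, named for being interferon-inducible, encode nuclear proteins that bind DNA and act in transcription and in innate sensing. In the brain, microglia, the resident macrophages, are a known source of these transcripts.

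Polyadenylated RNA was sequenced from C57BL/6J mice with a Polr3a mutation brought about by tamoxifen-induced recombination at postnatal day 28 (P28), and from wild types, which were given tamoxifen too. Polr3a codes for the catalytic large subunit of the polymerase, whose products include transfer RNAs and 5S ribosomal RNA. There are 24 libraries, 4 for each genotype in 3 settings: the P42 cerebrum, the P42 cerebellum and the P75 cerebrum. These ages lie 14 days after tamoxifen for P42 and 47 days for P75. At P75 all animals were male. At P42 each group had 2 animals of each sex, except the cerebellum wild types with 3 males and 1 female. The labels name neither the Cre driver nor the recombined cells, and they do not say whether the wild types carried Cre or whether each library came from its own animal. The p-values therefore measure the spread between these libraries, which may be technical.

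Libraries held 13832721 to 23175864 counts each. Polr3a itself measured 30.01 to 33.1 CPM (counts per 1000000 counts of the library, scaled by TMM) in the P75 mutants and 30.3 to 37.8 in the P75 wild types, and 33.0 to 38.7 against 35.6 to 44.3 in cerebrum at P42 and 43.9 to 57.2 against 41.3 to 59.0 in cerebellum. Gene counts do not separate the mutant from the normal transcript, so these levels do not check the genotype labels. Cerebellar neuron markers summed to 1165 to 4018 CPM in the cerebellum libraries and 140 to 300 in the P42 cerebrum libraries. The cerebellum mutants differed among themselves, at 4018, 1866, 3645 and 1165 CPM, where its wild types held 2230 to 3534. Choroid plexus markers were at 14.2 CPM in cerebellum mutant 1, 702 to 965 in the other mutants and 1279 to 2276 in the wild types. The cerebellum libraries were left out each in turn but not in sets. In cerebrum at P42, mutants 3 and 4 stood apart, with cerebral cortex neuron markers at 725 and 939 CPM where the other 6 libraries held 2821 to 4666. For the PYHIN genes in cerebrum at P42, the calls and the log2 fold changes that changed sign are therefore also given without these libraries. The age and tissue interactions, which use them too, were fitted without each in turn but not without both. The P42 and P75 libraries were deposited in separate tables, so age and table cannot be told apart in levels.

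All members lie in 1 cluster on chromosome 1 (mm10, GRCm38), from the start of Aim2 at position 173350879 to the end of Ifi203 at 173942672. Aim2 (+ strand, chr1:173350879-173466040), Ifi209 (+, chr1:173630917-173647928) and Ifi208 (+, chr1:173673675-173698395) are transcribed in one direction. Ifi206 (chr1:173468485-173491041), Ifi213 (chr1:173566283-173599274), Ifi207 (chr1:173723427-173741747), Ifi204 (chr1:173747293-173766943), Mndal (chr1:173849126-173942491), Ifi211 (chr1:173896345-173913046) and Ifi203 (chr1:173920407-173942672) are transcribed in the other. The Mndal span holds the whole of Ifi211 and nearly all of Ifi203, but Mndal and Ifi203 share only 37 exon bases.

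**Figure D1:**
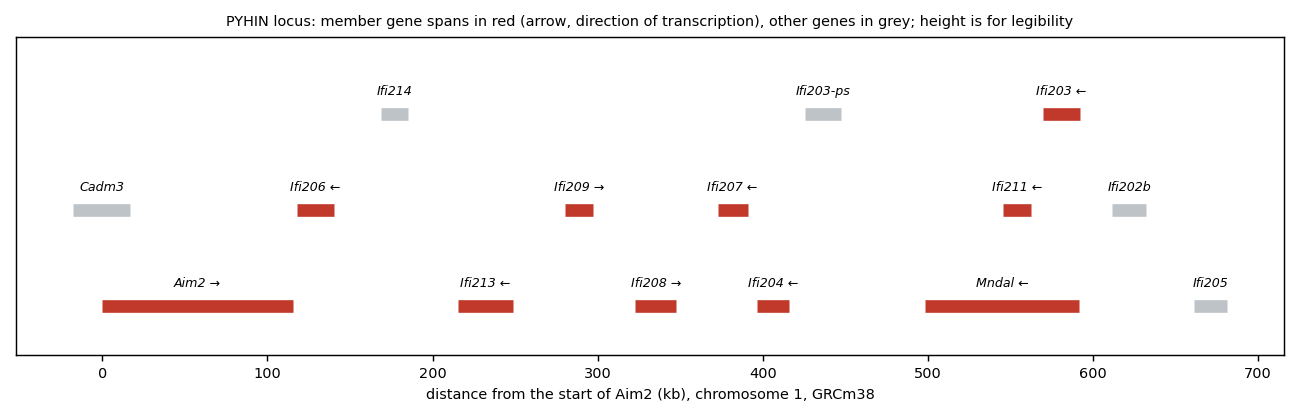
Map of the PYHIN cluster by distance in kb from the start of Aim2, on chromosome 1 of GRCm38. Red bars are the 10 members with their direction of transcription and grey bars are 5 other genes of the locus. Height only separates the labels, and Ifi211 and nearly all of Ifi203 lie within the Mndal span.

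The promoters of these genes are shown because an interferon response element is the sequence feature most often tied to interferon-inducible genes. Whether the motifs go with the size of each member's response was not tested. RefSeq promoters (GRCm38.p6, 250 bases before to 50 after each start) were matched for 9 of the 10 members, with 11 promoters in all. The interferon-stimulated response element was searched as GAAA, any 2 bases and GAAA again, on both strands, and the gamma-activated site as TTCNNNGAA on both strands. The first was present in 7 of the 9 members, against 3.99% of 27025 genes with a promoter of that length, and the second in none of the 9, against 9.55%. Matches of the 2 motifs overlapped in 24 of all 32851 promoters, none of them a member's. In the windows below, each 30 bases long and written 5′ to 3′ along the gene, the capitals mark the match.
Ifi206: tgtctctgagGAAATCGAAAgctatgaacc
Ifi213: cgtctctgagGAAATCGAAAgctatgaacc
Ifi208: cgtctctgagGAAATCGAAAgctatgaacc
Ifi207: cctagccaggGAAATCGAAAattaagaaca
Ifi211: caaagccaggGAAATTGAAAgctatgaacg
Mndal: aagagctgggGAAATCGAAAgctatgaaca
Ifi203: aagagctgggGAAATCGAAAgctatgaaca

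The matches began between 73 and 35 bases before the start site, at position -40 for Ifi206 (window chr1:173491339-173491368), -73 for Ifi213 (chr1:173599326-173599355), -58 for Ifi208 (chr1:173673597-173673626) and -41 for Ifi207 (chr1:173741831-173741860). They began at -37 for Ifi211 (chr1:173913064-173913093), -36 for the second Mndal promoter (chr1:173880204-173880233) and -35 for the first Ifi203 promoter (chr1:173942508-173942537). A further match, not shown above, lay on the opposite strand of the first Mndal promoter, as TTTCTCTTTC at -54 (window chr1:173879993-173880022). The second Ifi203 promoter held no match. The exact form GAAATCGAAA was present in 6 members, against 0.0592% of genes, and its last 9 bases, AAATCGAAA, in 7, against 0.141%. Both forms were chosen after the member promoters were seen. The seventh gene with the shorter form was Ifi209 (chr1:173630770-173630799), which lacks the full element.
Ifi209: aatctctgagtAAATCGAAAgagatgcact

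The promoter of Aim2 held none of these motifs, and Ifi204 had no entry in the table. The member promoters are not independent sequences. Ifi206 and Ifi208 share an identical stretch of 182 bases, Mndal and Ifi203 share 139, and Ifi213 shares 135 with each of Ifi206 and Ifi208.

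At P75 the PYHIN genes were far more abundant in the mutant cerebrum than in the wild type. Summed over the 10 members, the mutants held 64.6, 72.1, 37.1 and 26.5 CPM and the wild types 5.80, 8.67, 9.16 and 8.69 CPM, a ratio of group means of 6.20. The groups did not overlap. A gene was called at an adjusted p under 0.05 in edgeR's quasi-likelihood test of 17523 genes, of which 14.3% were called, 7.66% as higher and 6.62% as lower. Of the 10 members, 9 passed the filter on low counts and each of these was called higher in mutants. Of those 9, only Aim2, Ifi203 and Mndal reached the filter in the wild types alone, and the other 6 passed through their counts in the mutants, so neither their number nor their median supports a difference. Every mutant lay above every wild type for 9 of the 10 members, all but Ifi208, while 10.1% of the genes tested had such a separation upward. The median log2 fold change was 4.23 over the members tested, also with Ifi206 at its bound, and 0.00 over all genes tested. Bulk tissue cannot tell more cells of a type from more RNA per cell, and this holds for each of the comparisons.

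**Figure D2:**
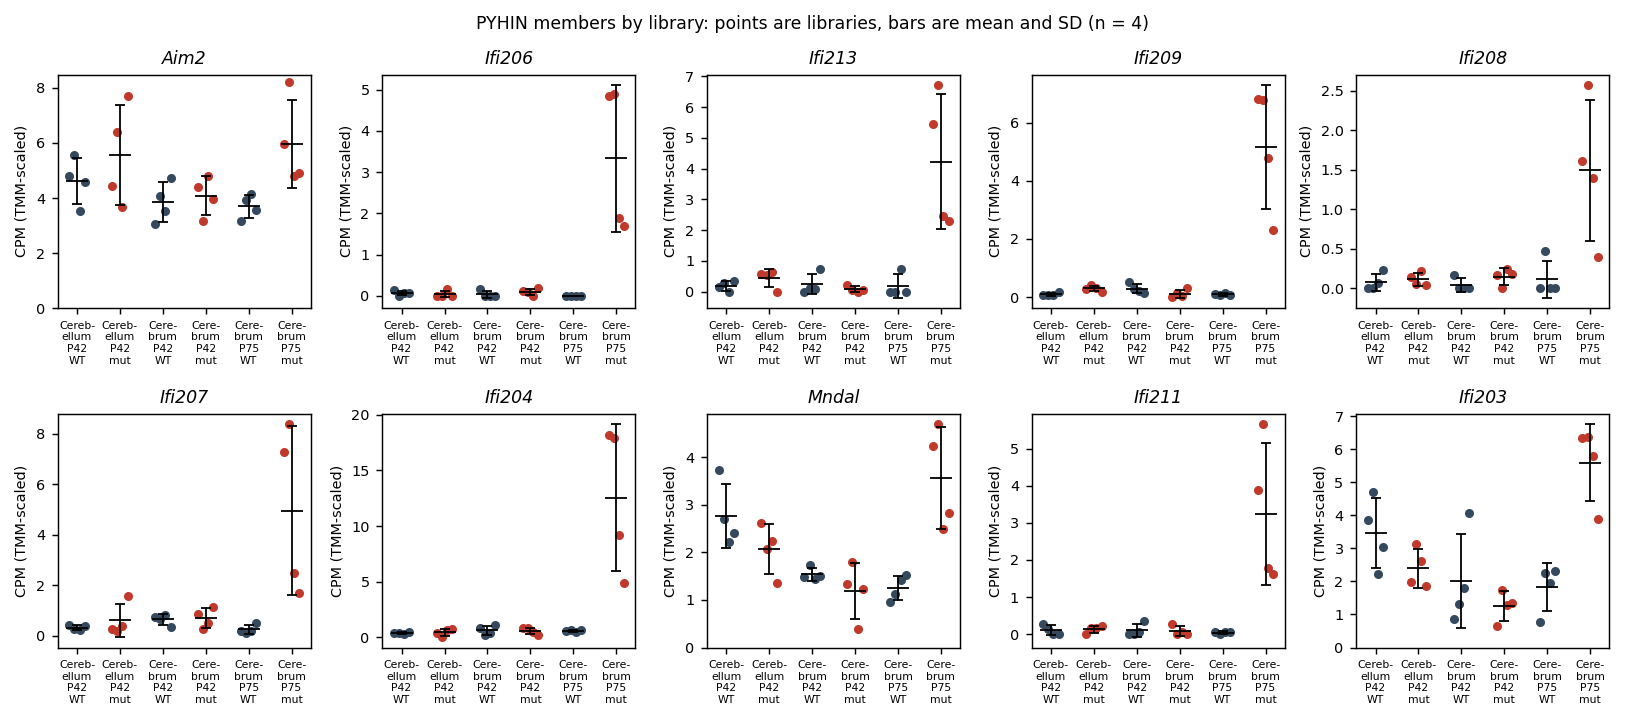
CPM of each member in all 24 libraries, 1 panel per gene with its own axis; points are libraries (red mutants, dark wild types), and bars give the mean and SD of 4. In cerebrum at P75 the mutants lie above all wild types for every gene but Ifi208, and at P42 no gene separates the groups.

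Aim2, the cytosolic DNA sensor, was the exception in both level and size of change. It measured 5.96, 8.22, 4.79 and 4.90 CPM in P75 mutants and 3.15, 3.93, 4.13 and 3.55 CPM in wild types. All mutants were above all wild types, by a small margin. The log2 fold change was 0.69 ± 0.21 (SE), with an adjusted p of 0.0392, and Aim2 ranked 2190 by p among the genes tested. The call lay close to the threshold of 0.05. It was lost without mutant 1 (adjusted p = 0.0884), mutant 2 (log2 fold change 0.50, adjusted p = 0.128), or wild type 1, 2, 3 or 4 (0.103, 0.0550, 0.0575 and 0.0926). When each library was left out, adjusted p ranged from 0.0266 to 0.128 and the log2 fold change from 0.50 to 0.78.

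Ifi204 encodes p204, a nuclear and cytosolic protein studied as a DNA sensor upstream of STING and in myeloid differentiation. Its P75 mutants held 18.1, 17.9, 9.18 and 4.90 CPM, and its wild types 0.568, 0.667, 0.503 and 0.658 CPM. The lowest mutant was thus several times the highest wild type. The log2 fold change was 4.38 ± 0.42 (adjusted p = 1.35e-05, rank 57), and the ratio of counts, 952 against 39, was 21.3 (95% exact conditional binomial interval 15.5 to 30.1, counting error only). Ifi204 had the highest mean in CPM of all members in the P75 mutants.

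Ifi203 and Mndal encode nuclear HIN proteins and overlap in position. Ifi203 measured 6.34, 6.36, 5.79 and 3.89 CPM in P75 mutants and 0.757, 2.27, 1.96 and 2.30 in wild types. Mndal measured 4.23, 4.69, 2.49 and 2.82 CPM in mutants and 0.946, 1.13, 1.41 and 1.51 in wild types. Both were already well above 0 in wild types, and both rose by less than Ifi204: the log2 fold change was 1.62 ± 0.29 for Ifi203 (adjusted p = 0.00226) and 1.499 ± 0.28 for Mndal (adjusted p = 0.00306).

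The remaining 6 members, less studied relatives of the DNA-binding genes above, were at or near the floor of detection in the wild types. Ifi209 measured 6.79, 6.76, 4.79 and 2.31 CPM in mutants and 0.126, 0.0667, 0.151 and 0.0658 in wild types, or 122, 134, 96 and 41 counts against 2, 1, 3 and 1. With a log2 fold change of 5.52 ± 0.48 and an adjusted p of 6.15e-06 it had the smallest p of the family, rank 35 of all genes tested. The ratio of its counts was 49.0 (interval 23.5 to 123).

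Ifi206 had no count in any P75 wild type and 87, 97, 38 and 30 counts in the mutants (4.84, 4.89, 1.90 and 1.69 CPM). Against the limit that 0 counts allow, 3 counts over the wild type group, it was at least 73.2-fold higher in mutants (adjusted p = 0.000114), and at least 18.3-fold with a floor of 3 counts per library. Ifi211 measured 3.90, 5.65, 1.80 and 1.63 CPM in mutants and 1, 0, 1 and 1 counts in wild types, a ratio of 71.8 with an interval of 24.3 to 351. Its log2 fold change was 5.95 ± 0.66 (adjusted p = 4.19e-05). Mutants 1 and 2 were the higher libraries for both genes.

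Ifi207 measured 7.29, 8.37, 2.49 and 1.69 CPM in mutants and 0.189, 0.133, 0.201 and 0.526 in wild types. The log2 fold change was 4.22 ± 0.59 (adjusted p = 0.00032), and the ratio of counts 19.3 (interval 11.9 to 33.6). Its mutants fell into a higher pair, libraries 1 and 2, and a lower pair, libraries 3 and 4.

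Ifi213 and Ifi208 each had all of their wild type counts in 1 library. Ifi213 measured 5.45, 6.71, 2.44 and 2.31 CPM in mutants, and 0, 0, 15 and 0 counts in wild types. Its log2 fold change of 4.23 ± 0.73 (adjusted p = 0.00163) was set by wild type 3, without which Ifi213 was at least 65.2-fold higher in mutants, or at least 21.7-fold with a floor of 3 counts per library. Ifi208 had 29, 51, 28 and 7 counts in mutants and 0, 7, 0 and 0 in wild types. Mutant 4 (0.394 CPM) lay below wild type 2 (0.467 CPM), so the groups overlapped, and Ifi208 did not pass the filter. Its ratio of counts was 14.3 (interval 6.73 to 36.4), and without wild type 2 at least 25.8, or at least 8.61 with the floor per library. In the authors' deposited table, which lists all 10 members at P75, Ifi208 was the only member not past 0.05 (log2 fold change 3.70, adjusted p = 0.0725).

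**Figure D3:**
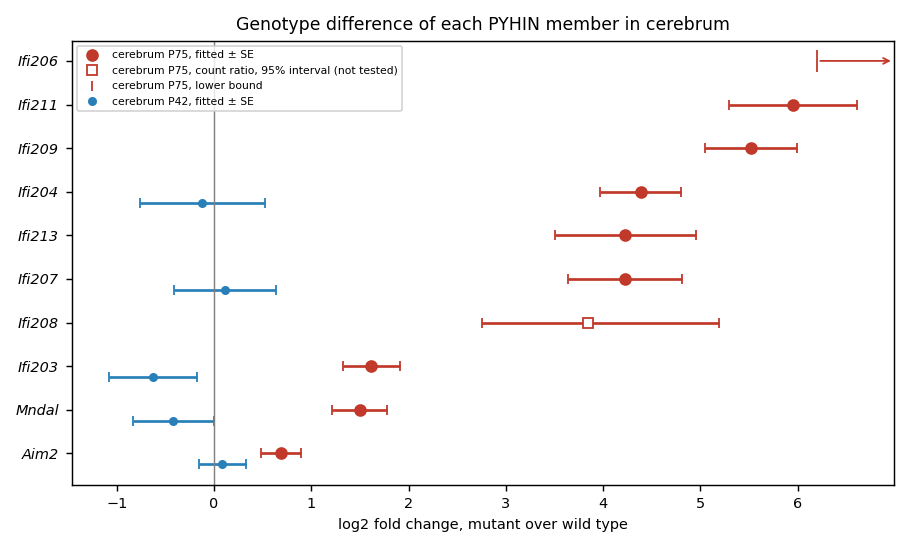
log2 fold change of each member in cerebrum, mutant over wild type. Filled points are fitted values with SE at P75 (red) and P42 (blue, members that passed the filter), the open square is the ratio of Ifi208 counts with its 95% counting interval, and the arrow starts at the lower bound for Ifi206; Aim2, Mndal and Ifi203 lie at 0.69 to 1.62 at P75 and the others above 3.

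The make-up of the family changed with the genotype. Per kilobase of exon length, Aim2 was the most abundant member in the P75 wild types, at 1.05 ± 0.12 CPM per kb, followed by Mndal (0.345 ± 0.0713), Ifi203 (0.272 ± 0.108) and Ifi204 (0.168 ± 0.0219). Mndal and Ifi203 did not differ beyond their spread. In the P75 mutants Ifi204 led at 3.52 ± 1.85, ahead of Ifi211 (1.82 ± 1.07), Aim2 (1.70 ± 0.455), Ifi209 (1.46 ± 0.598) and Ifi207 (1.45 ± 0.982). Ifi206 (1.09), Mndal (0.981), Ifi203 (0.834), Ifi213 (0.618) and Ifi208 (0.284) followed. The leading members overlapped within their SDs, which hold the spread between libraries that all members share. Within libraries, Ifi204 lay above Ifi211 in each mutant (5.10, 5.03, 2.58 and 1.38 against 2.18, 3.17, 1.01 and 0.915). Aim2 lay above Ifi204 only in mutant 4 (1.40 against 1.38). The share of Aim2 in the family's summed CPM per kb was 52.6% ± 4.50 in wild types and 13.7% ± 4.32 in mutants, and that of Ifi204 8.48% ± 1.62 and 24.7% ± 3.98 (SD, n = 4). Aim2 ranked first and Mndal second per kilobase in the P75 wild types and in all 4 groups at P42.

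**Figure D4:**
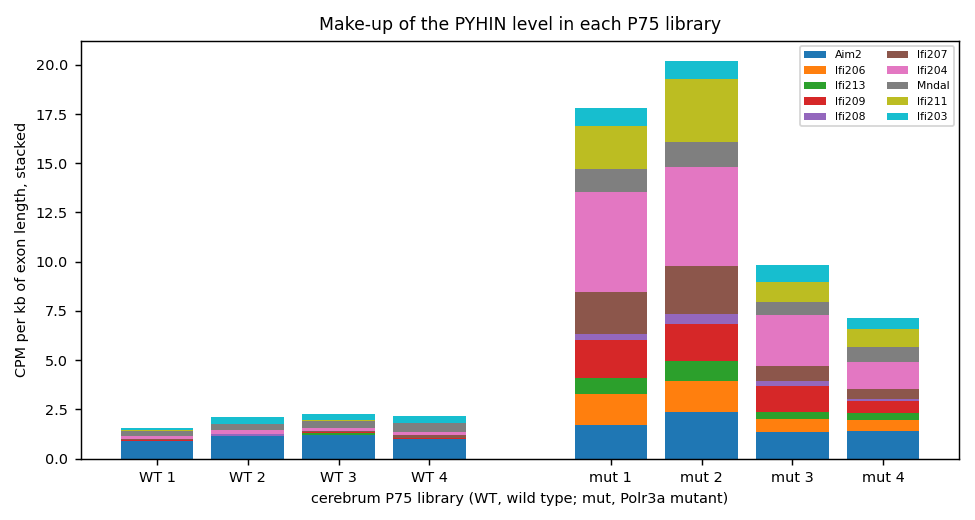
CPM per kb of exon length for the 10 members, stacked, in each cerebrum library at P75. The wild type bars are mostly Aim2 (52.6% of the stack on average), and in the mutant bars Ifi204 is the widest band on average (24.7%).

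The mutant libraries kept nearly one order across the family. Mutant 2 was the highest library for 8 of the 10 members and mutant 1 for the other 2, and mutant 4 was the lowest for 8 and mutant 3 for the other 2. The spread within the mutants differed between genes, from a highest library 1.64 times the lowest for Ifi203 and 1.72 times for Aim2 to 3.70 times for Ifi204, 4.96 times for Ifi207 and 6.53 times for Ifi208.

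Microglia markers were also higher in mutants 1 and 2 than in mutants 3 and 4. The 10 markers summed to 938, 932, 534 and 469 CPM in P75 mutants 1 to 4 and to 352 to 369 CPM in wild types, with none at 0, and 7 of 10 were called higher, C1qa by 1.85 ± 0.25 and C1qb by 1.59 ± 0.23 on the log2 scale. The ratio of group means was 1.996 for the microglia markers and 6.20 for the PYHIN sum. For each 100 CPM of microglia markers the mutants held 6.88, 7.74, 6.94 and 5.65 CPM of PYHIN transcripts, and the wild types 1.60, 2.44, 2.61 and 2.35. The P75 groups did not overlap on this scale either. At P42 the cerebrum held 3.24 to 3.47 in mutants and 2.34 to 4.65 in wild types. The P42 cerebellum held 7.33 to 9.89 in mutants and 5.06 to 10.3 in wild types. Such values were thus not particular to the P75 mutants. P2ry12, a homeostatic microglial receptor, had a log2 fold change of 0.02 ± 0.13 (adjusted p = 0.934). It was the lowest of the 10 markers, whose median was 0.90. P2ry12, and Cd4 and the defining T cell genes in the next paragraph, were named after their values were seen. The part that a change in microglial number has in these results was not tested.

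Blood cell markers were low. T cell markers summed to 8.96, 10.2, 11.7 and 12.2 CPM in P75 mutants 1 to 4 and to 13.7 to 15.5 in wild types, but the genes of the list differed in direction. The defining genes Cd3d, Cd3g, Cd8a and Cd8b1 had 6, 7, 31 and 11 counts over the 4 mutants and 0, 0, 0 and 1 over the wild types. Cd4 had 240 counts in mutants against 429, and Trbc2 183 against 356. Of 4 T cell markers tested Lck was called higher (1.004 ± 0.26), Trbc2 fell by 1.16 on the log2 scale and Cd4 was also called lower. B cell markers summed to 15.0 to 26.2 against 20.1 to 26.9 CPM, with Cd79a called higher (4.197 ± 0.50) and Ighm lower (-0.64 ± 0.15) of 3 tested. Monocyte and macrophage markers summed to 18.9 to 29.5 against 12.2 to 18.97 CPM, with Plac8, itself listed here as a monocyte marker, called higher (3.55 ± 0.48) of 6 tested. NK cell markers had 34 counts in all mutants and 8 in all wild types, with Ncr1 at 0 in both, and of 3 neutrophil markers tested 0 were called. Their part in the PYHIN result was not tested.

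Of the other brain cell lists at P75, 1 of 6 astrocyte markers was called higher (Gfap, 2.47 ± 0.28), 3 of 5 endothelial markers were called higher (Ly6c1, 0.55 ± 0.10), 1 of 3 choroid plexus markers was called higher (Ttr, 0.48 ± 0.12), and 4 of 5 cerebral cortex neuron markers were called lower (Tbr1, -0.70 ± 0.11). Of 3 cerebellar neuron markers tested 1 was called lower (Calb1, -0.48 ± 0.09), and 0 of 4 oligodendrocyte and 0 of 5 erythroid markers were called.

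Lists of interferon-related genes changed to different degrees at P75. Of the 24 antiviral interferon targets all 24 were called higher, with a median log2 fold change of 3.88, among them Oasl2 (4.93 ± 0.33), Isg15 (4.40 ± 0.31) and Ifit3 (4.198 ± 0.29). Their summed level in the mutants, 1454, 1285, 758 and 537 CPM against 102 to 114 in wild types, put mutant 1 first, while mutant 2 led the PYHIN sum. Of the interferon receptors and signalling genes 9 of 15 were called higher (median 0.84), with Usp18, an inhibitor of the interferon receptor, at 4.29 ± 0.35 and the transcription factor Irf9 at 2.19 ± 0.19. The interferon ligands gave no test: their 21 genes had 28 counts in all P75 mutants together and 5 in all wild types, and 12 and 18 of them had no count.

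Of the cytosolic DNA sensing list 6 of 15 tested genes were called higher and none lower (median 0.75), including the nucleic acid sensor Zbp1 (4.95 ± 0.52), the transcription factor Irf7 (4.74 ± 0.34) and the nucleotide hydrolase Samhd1 (0.77 ± 0.12). Of the inflammasome and pyroptosis list 8 of 14 tested were called higher and none lower (median 1.01), with Casp4, the caspase of the noncanonical inflammasome, at 2.50 ± 0.53, Naip2, a sensor of bacterial proteins, at 1.62 ± 0.29 and Gsdmd, the pore-forming target of inflammatory caspases, at 1.09 ± 0.24. The direct partners of AIM2 were among those called: Pycard, which encodes ASC, at 1.23 ± 0.28 (adjusted p = 0.00976), and Casp1 at 0.93 ± 0.28 (adjusted p = 0.0424). Cgas, another cytosolic DNA sensor, was at 0.78 ± 0.28 (adjusted p = 0.0783), and Sting1, which acts below it, at 1.02 ± 0.25 (adjusted p = 0.0151). These 4 genes were named after their values were seen, for their known link to the PYHIN proteins.

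**Figure D5:**
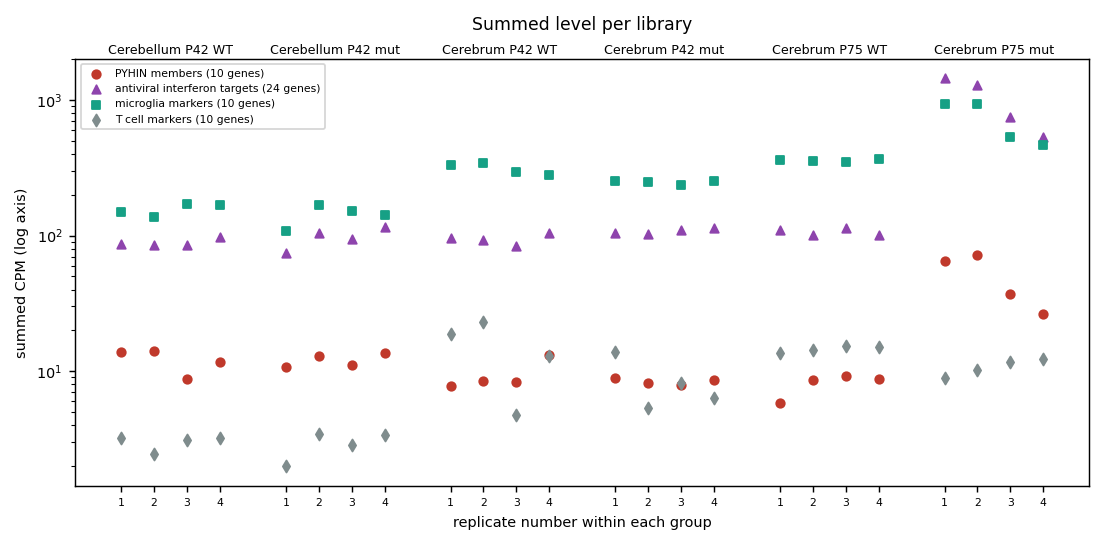
Summed CPM per library, on a log axis, of the 10 PYHIN members and of the antiviral interferon target, microglia marker and T cell marker lists. In cerebrum at P75 the PYHIN, antiviral and microglia sums of all 4 mutants lie above all wild types and are higher in mutants 1 and 2, and the T cell sums lie below.

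Over all 24 libraries, each centred on its gene's mean in log2(CPM + 0.5), the non-member genes lying nearest to the mean profile of the members tested at P75 were Parp9 (root mean square difference 0.169), Eif2ak2 (0.230), Hist1h2ah (0.232), B2m (0.244) and Ccl4 (0.262). The members themselves lay between 0.242 (Ifi211) and 0.692 (Aim2) from that mean. It was formed from all of them but Ifi208, so their nearness to it was partly set in advance. The median non-member lay at 0.890, which is therefore no measure of how alike the members are. Parp9, a macrodomain protein of the interferon response, had a log2 fold change of 2.51 ± 0.27 at P75, and B2m, the light chain of MHC class I, one of 2.13 ± 0.25.

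Between the first and the last member the tables hold 9 other rows, of which 6 had no count at P75 and 1 passed the filter: Cadm3, a neuronal adhesion gene that overlaps the Aim2 span on the opposite strand without sharing an exon base, at -0.14 ± 0.07 (adjusted p = 0.178). The following locus genes were picked after their values were seen. Ifi205, a PYHIN gene just beyond the cluster, had 34 counts in P75 mutants and 1 in wild types, Ifi214 had 5 and 0, the pseudogene Ifi203-ps within the cluster had 39 and 9, and Ifi202b, whose low expression in C57BL/6 mice is known, had 0 in both. Among tested genes near the cluster, Tagln2 was called higher (0.88 ± 0.18, adjusted p = 0.00499), Fh1 lower (-0.35 ± 0.08, adjusted p = 0.00755) and Rgs7 lower (-0.28 ± 0.09, adjusted p = 0.0396), and Ackr1, Dusp23, Vsig8, Cfap45, Fmn2 and Kmo were not called.

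The members share sequence, which limits how far reads can be assigned to 1 of them. Of all 50-base words in its transcripts, 72.8% of those of Ifi211 also occur in another gene, most often Ifi205 (44.7%), and 33.7% of those of Ifi209, most often Ifi214 (33.4%). The shares were 25.6% for Ifi206, 20.8% for Ifi208, 20.02% for Ifi204, 19.6% for Mndal, 15.6% for Ifi213, 12.2% for Ifi203, 7.29% for Ifi207 and 0.628% for Aim2. Whether the authors counted reads with several matches, and whether they used strand, is not given in the sources used here, so the levels of Ifi211 and Ifi209 in particular are uncertain as to which copy they come from.

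At P42, 14 days after tamoxifen, no such difference was seen in cerebrum. The PYHIN sum was 8.85, 8.10, 7.90 and 8.59 CPM in mutants and 7.82, 8.43, 8.36 and 13.1 in wild types, and the groups overlapped. Of 5 members that passed the filter 0 were called by edgeR, 0 reached an unadjusted p under 0.05, and DESeq2 also called 0, where 0.0165% of all genes tested (3 of 18205) were called and 2299 had an unadjusted p under 0.05. The log2 fold changes were 0.09 ± 0.24 for Aim2 (adjusted p = 0.888), 0.11 ± 0.52 for Ifi207 (0.930), -0.12 ± 0.64 for Ifi204 (0.942), -0.42 ± 0.42 for Mndal (0.655) and -0.62 ± 0.45 for Ifi203 (0.543). Without mutants 3 and 4, 0 members were called.

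Ifi204 held 0.810, 0.828, 0.530 and 0.183 CPM in the P42 mutant cerebrum and 0.850, 0.222, 0.370 and 1.14 in the wild types, so its mutants were in the range of the wild types. Ifi203 held 0.637, 1.75, 1.30 and 1.34 against 0.850, 1.33, 1.80 and 4.06 CPM. Wild type 4 gave 78 of the 157 wild type counts of Ifi203, 14 of the 19 of Ifi213 and 7 of the 8 of Ifi211. The 5 untested genes had few counts in both groups of 4 libraries: 7 and 3 (mutants and wild types) for Ifi206, 11 and 3 for Ifi208, 9 and 22 for Ifi209, 6 and 8 for Ifi211 and 6 and 19 for Ifi213. The microglia markers went the other way from P75, at 238 to 255 CPM in these mutants and 281 to 341 in the wild types, though 0 of 10 were called, and 0 of 21 antiviral targets tested were called.

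In the cerebellum at P42 the PYHIN sum was 10.7, 13.04, 11.1 and 13.7 CPM in mutants and 13.9, 14.2, 8.68 and 11.8 in wild types. Only Aim2, Ifi203 and Mndal passed the filter, and 0 were called by edgeR, 0 reached an unadjusted p under 0.05, and DESeq2 called 0; of all genes tested 0.0114% (2 of 17616) were called, 0.00568% as higher and 0.00568% as lower. Aim2 measured 4.45, 6.41, 3.69 and 7.70 CPM in mutants and 4.80, 5.55, 3.52 and 4.58 in wild types (log2 fold change 0.27 ± 0.29, adjusted p = 0.984). The mutants with the higher Aim2 levels were those whose cerebellar neuron markers lay below the wild types, and a link between them was not tested. The values for Ifi203 were -0.48 ± 0.32 (adjusted p = 0.967) and for Mndal -0.35 ± 0.29 (adjusted p = 0.976).

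The untested members had from 3 to 51 counts per cerebellar group. Ifi207 had 4, 4, 7 and 36 counts in mutants and 6, 4, 3 and 7 in wild types, so mutant 4 alone set its higher total. Ifi209 had 4, 8, 6 and 4 against 1, 1, 1 and 3 counts, a ratio of 2.92 with an interval of 1.15 to 8.81. As at P75, the intervals hold counting error only and leave out the spread between libraries. In CPM the Ifi209 groups overlapped, with mutant 4 at 0.1761 and wild type 4 at 0.1763. With no low-count filter, edgeR did not call Ifi209 in cerebellum (adjusted p = 0.973). Ifi213 had 30 against 12 counts, Ifi204 36 against 24, Ifi211 11 against 6, Ifi208 8 against 5 and Ifi206 3 against 4. Scaled for library depth, these ratios were 1.99 (interval 0.99 to 4.27), 1.20 (0.69 to 2.09), 1.46 (0.50 to 4.81), 1.28 (0.37 to 4.95) and 0.60 (0.09 to 3.53). Each of these intervals included 1. Aim2, Mndal and Ifi203 led in CPM in both cerebellar groups, as in the wild type cerebrum.

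Whether the genotype difference in cerebrum itself differed between the ages was tested as an interaction, with each age set against its own wild types. All P75 animals were male, while the P42 cerebrum groups held both sexes. The fit had the same sex term for both genotypes, so a genotype difference that depended on sex was not separated from age. Of 9 members tested, 3 were called: Ifi209 (interaction 6.77 ± 0.94 on the log2 scale, adjusted p = 0.00105), Ifi204 (4.48 ± 0.76, adjusted p = 0.00484) and Ifi207 (4.12 ± 0.85, adjusted p = 0.0203). Of 19273 genes tested 1.36% were called, 1.04% as higher and 0.322% as lower at P75. Ifi209 passed the low-count filter only through the P75 mutants, as did Ifi206, Ifi211 and Ifi213, so the number of members called supports no difference, while Ifi204 and Ifi207 reached the filter in 8 and 6 of the other 12 libraries. Of the others, Ifi203 was at 2.24 ± 0.56 (adjusted p = 0.0591), Mndal at 1.92 ± 0.49 (0.0644), Ifi211 at 6.33 ± 1.71 (0.0819), Ifi213 at 5.61 ± 1.62 (0.108) and Ifi206 at 7.77 ± 2.35 (0.144, fitted against a group at 0 and so dependent on the prior count). Aim2 was at 0.61 ± 0.31 (adjusted p = 0.394). The call of Ifi207 was lost without P75 mutant 1 or 2, P75 wild type 1, 2 or 3 or P42 wild type 2, with adjusted p from 0.00595 to 0.0629 over the libraries left out, and Ifi213 was called without P75 wild type 3 (adjusted p = 0.0194). The all-gene count also turned on single libraries. Without mutant 1 of the P42 cerebrum 7 members and 1169 genes were called, against 3 members and 263 genes with all libraries. Without P75 mutant 1 or 2, P75 wild type 1, 3 or 4 or P42 mutant 4, 124 to 166 genes were called.

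The genotype difference was also compared between cerebellum and cerebrum at P42. Of 5 members tested 0 were called by edgeR, none had an unadjusted p under 0.05, and DESeq2 called none. The estimates, cerebellum less cerebrum, were 0.67 ± 0.90 for Ifi207, 0.19 ± 0.37 for Aim2, 0.17 ± 0.96 for Ifi204, 0.04 ± 0.58 for Ifi203 and -0.06 ± 0.52 for Mndal, with adjusted p from 0.854 to 0.989. Of all 19614 genes tested 0% were called, while 1213 had an unadjusted p under 0.05.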

How the data were processed

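The deposited tables hold whole-number read counts per gene, which were used unchanged. Per the submitters' processing notes the authors used HISAT2, DESeq2 and build mm10, and the counting tool, annotation release and strand setting are not stated in any source consulted. The authors' deposited comparison tables hold, per the file headers, log2 fold changes and p-values, used only where named, and their signal, score and error columns were not used.

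Each comparison of 4 mutants with 4 wild types was fitted across all genes with edgeR 4.0.16 (R 4.3.3, filterByExpr, TMM, quasi-likelihood F test, two-sided, sex as a covariate at P42), with Benjamini-Hochberg adjustment and a call at adjusted p under 0.05. CPM were scaled by TMM within each comparison of 8 libraries, and values per kilobase use the deposited gene length. Bounds use a floor of 3 counts over the group. Alternatives were DESeq2 1.42.0, other scalings and filters, a stricter threshold, a replicate block, no sex term and leaving out each library. Libraries held 13832721 to 23175864 counts. Scripts were tested on simulated data. The members, lists and tests were chosen with earlier results of these data known. Named genes are all members, up to 3 genes of each pathway list and 2 of each cell type list with the smallest p at P75, the 5 nearest profiles and tested genes inside the locus; others are said to be picked afterwards. No libraries were duplicates. Some values of genes near the cluster or in the pathway lists are not reported here.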

Additional observations from a re-analysis of the deposited data

Results flagged for a closer look

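Single libraries stood far from the other 3 of their group in 9 of 60 groups of 4 values examined, by a limit that marks about 1 in 20 groups of normally distributed values by chance. Groups with few counts, where 1 small count stands beside zeros, are not so distributed, and nearly all of the 9 rest on few counts. In P75 wild types these were Ifi213 in library 3 (0.755 CPM, 15 counts) and Ifi208 in library 2 (0.467 CPM, 7 counts), with the other 3 libraries at 0. In the P42 cerebrum they were Ifi206 and Ifi208 in wild type 1 (0.170 CPM each, 3 counts each, with the others at 0), Ifi211 in wild type 4 (0.364 CPM, 7 counts) and Ifi211 in mutant 1 (0.289 CPM, 5 counts). In the P42 cerebellum they were Ifi206 in mutant 3 (0.160 CPM, 3 counts), Ifi209 in wild type 4 (0.176 CPM, 3 counts) and Ifi207 in mutant 4 (1.58 CPM, 36 counts), where the other 3 mutants held 0.212 to 0.374 CPM.

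The interaction of genotype and age in cerebrum was called for Ifi209 (6.77 ± 0.94, adjusted p = 0.00105), Ifi204 (4.48 ± 0.76, adjusted p = 0.00484) and Ifi207 (4.12 ± 0.85, adjusted p = 0.0203), in log2 units. Ifi209 passed the low-count filter only through the P75 mutants, where it was high. Because all P75 animals were male, a genotype difference that depended on sex was not separated from age. The call of Ifi207 was lost when certain single libraries were left out and with the replicate block.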

How the results depend on the processing

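At P75 the number of members called was 8 to 10 over 15 alternatives, 9 with DESeq2 and 9 with the replicate block. Replicate numbers were not treated as pairs in the main fits, as the labels do not name pairs. At P75 each mutant library correlated best with the wild type of its own number, at 0.0716, 0.190, 0.103 and 0.0411. At P42 this did not hold for every library. Whether the numbers mark pairs or a shared batch was not tested. For the age interaction, 3 members were called, against 7 with DESeq2, 8 with no low-count filter, 2 with the replicate block (Ifi207 at 3.96, adjusted p = 0.0537) and 2 to 7 with each library left out. The Ifi206 bound was 18.3-fold with a floor of 3 counts per library. In cerebrum at P42 some uncalled log2 fold changes changed sign: Ifi207 was -0.0027 with the replicate block, and without mutants 3 and 4, an alternative chosen after seeing the data, Ifi204 was 0.34, Ifi207 -0.33, Mndal 0.0118 and Aim2 -0.0202. With each library left out the range was -0.0402 to 0.23 for Aim2, -0.50 to 0.50 for Ifi204 and -0.44 to 0.37 for Ifi207. Over all genes, calls at P75 were 2502 against 1086 at adjusted p under 0.01, 1356 without mutant 1 and 1634 without wild type 4. In cerebrum at P42 they were 3 against 237 with DESeq2, 1312 with no filter, 8 with the replicate block and 0 to 11 with each library left out, in cerebellum 2 against 41 and 153, for the age interaction 263 against 670, 1176, 100 at adjusted p under 0.01 and 124 (without P75 mutant 1) to 1169 (without P42 mutant 1) with each library left out, and for the tissue interaction 0 against 7 and 279. The causes were not tested. Low counts, 0 to 15 per library with a median of 1 outside the P75 mutants, limit what can be said of Ifi206, Ifi208, Ifi209, Ifi211 and Ifi213 at P42 and in wild types.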
